A study of Mus musculus with 4 samples.

Results

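The 10 histone deacetylase genes of classes I and II, Hdac1 to Hdac10, were followed in MC38 cells, a mouse colon carcinoma line. The family was chosen by the difference of a single member, Hdac7, between these same libraries, and the other 9 members were then taken by gene symbol whatever their values. All 10 were among the 26322 genes of the deposited table, and 9 passed the filter on low values. The exception, Hdac9, had 0 reads in every library.

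There were 2 sgNT libraries (labelled WT), from cells electroporated with Cas9 and a non-targeting guide, and 2 sgCbfb libraries (labelled CbfbKO), from cells given Cas9 and a guide against Cbfb. All 4 shared the parent line and the electroporation. Cbfb encodes CBFβ, the partner subunit that lets RUNX transcription factors bind DNA stably. RNA was taken at least 1 week after electroporation, an additional replicate of either group was left out by the authors for poor RNA, and the methods describe no cloning step, so that each group may hold a mixture of edited alleles. Sequencing started from the 3′ ends of the mRNAs, so reads do not grow with transcript length, and counts scaled to the library total (CPM) were used to compare levels between genes. Because the deposited log2 CPM values step by whole reads, read numbers could be recovered from them, and the libraries held between 3189035 and 3907936 reads.

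Cbfb itself checked the labels. It had 295 and 285 reads under sgNT and 125 and 125 under sgCbfb, and its transcript fell to 41.5% of the sgNT level, a log2 difference of -1.27 with a standard error of 0.12 (adjusted p = 1.76e-07 from limma). Its adjusted p in limma was 0.267 when sgCbfb replicate 1 was left out and 0.193 when sgCbfb replicate 2 was, while its log2 difference was -1.12 and -1.41, and 0 of the 12207 genes were called in either of those fits. Over the 12207 tested genes the median log2 difference was 0.039. Of the 10 epithelial markers listed for a colon carcinoma, 2 passed the low-value filter and 4 had 0 reads everywhere, Epcam had at most 1 read in a library and Cdh1 at most 2. Their summed level lay between 1.57 and 1.80 CPM, so the epithelial markers of the labelled cell type were nearly absent. The 8 mesenchymal markers summed to 2564 and 2702 CPM under sgNT and 2354 and 2258 CPM under sgCbfb, most of it Vim. The 6 tested were split, 3 positive and 3 negative, with a median log2 difference of 0.12. Col3a1 fell by 0.90 on the log2 scale (adjusted p = 2.46e-06 from limma), while Pdgfrb was at 0.82, Pdgfra at 0.53 and Col1a1 at 0.41 without passing the threshold, and the part of these markers in the values below was not tested. Of 8 leukocyte markers, 7 had 0 reads in every library and Ptprc had 1 read in 1 library.

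Histone deacetylases remove acetyl groups from lysines of histones and other proteins, which generally favours a compact, less transcribed chromatin. Members of classes I, II and IV hold a zinc ion in the active site, while the sirtuins of class III use NAD. Class I enzymes (HDAC1, HDAC2, HDAC3 and HDAC8) are mainly nuclear and, except for HDAC8, act within corepressor complexes such as Sin3, NuRD, CoREST and NCoR/SMRT. Class IIa enzymes (HDAC4, HDAC5, HDAC7 and HDAC9) have little deacetylase activity of their own, bind MEF2 factors, and leave the nucleus with 14-3-3 proteins once kinases have phosphorylated them. Class IIb holds HDAC6, a cytoplasmic deacetylase of tubulin, and HDAC10, a polyamine deacetylase.

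Because CBFβ acts through RUNX proteins, the promoters of the genes were searched for the RUNX core motif, written as TGTGGT or TGCGGT and read on both strands. RefSeq windows of GRCm38.p6, from 250 bases before to 50 bases after an annotated start, were read for 7 of the 10 genes. They were matched by symbol, with 11 windows in all. No window was read for Hdac1, Hdac3 and Hdac10, so a match in their promoters was not tested. Of the 7 genes, 3 held a match, Hdac2, Hdac6 and Hdac8, each as a single TGTGGT on the strand of the gene, so that no matches overlapped. Over all 32851 windows of that length, 22.4% held a match, and over all genes with a window the share was 25.0%. A match is a run of letters and not a shown binding site.

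The windows below are shown because they belong to Hdac2 and Hdac7, the members with the most reads, and to Hdac6, with the match in capitals. The Hdac8 window, with a motif starting 122 bases before the start site, is not shown. Log2 differences of the 3 genes with a match were 0.18 (Hdac2), 0.49 (Hdac6) and -0.11 (Hdac8), and a link to the motif was not tested. The Hdac2 window is chr10:36974294-36974593 (plus strand, motif starting 73 bases before the start site), and the Hdac6 window is chrX:7947840-7948139 (minus strand, motif starting 230 bases before it). Hdac7 has 4 annotated starts with a window and 0 matches in any of them. The Hdac7 window at chr15:97831446-97831745 (minus strand) has 73.7% G and C, and that at the outermost start, chr15:97844453-97844752 (minus strand), has 54.7%. Reads at the 3′ end do not tell which start a transcript used.
Hdac2: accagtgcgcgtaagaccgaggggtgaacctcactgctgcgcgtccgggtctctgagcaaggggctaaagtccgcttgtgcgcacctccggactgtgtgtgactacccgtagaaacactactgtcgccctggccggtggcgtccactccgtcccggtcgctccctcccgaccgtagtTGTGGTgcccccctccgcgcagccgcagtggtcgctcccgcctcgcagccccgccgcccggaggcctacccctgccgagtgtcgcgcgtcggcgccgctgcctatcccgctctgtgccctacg
Hdac6: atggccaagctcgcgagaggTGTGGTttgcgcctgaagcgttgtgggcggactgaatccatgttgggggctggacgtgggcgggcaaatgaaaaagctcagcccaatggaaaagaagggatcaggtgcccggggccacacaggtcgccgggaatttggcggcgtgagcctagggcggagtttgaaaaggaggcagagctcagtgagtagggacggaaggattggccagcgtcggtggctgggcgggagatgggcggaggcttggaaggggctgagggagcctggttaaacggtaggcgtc
Hdac7: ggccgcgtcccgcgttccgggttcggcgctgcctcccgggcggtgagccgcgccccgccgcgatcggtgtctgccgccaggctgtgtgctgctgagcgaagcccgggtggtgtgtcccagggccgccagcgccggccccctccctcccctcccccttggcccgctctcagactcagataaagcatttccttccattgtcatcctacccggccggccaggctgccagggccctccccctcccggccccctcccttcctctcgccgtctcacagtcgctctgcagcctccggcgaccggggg
Hdac7, outermost start: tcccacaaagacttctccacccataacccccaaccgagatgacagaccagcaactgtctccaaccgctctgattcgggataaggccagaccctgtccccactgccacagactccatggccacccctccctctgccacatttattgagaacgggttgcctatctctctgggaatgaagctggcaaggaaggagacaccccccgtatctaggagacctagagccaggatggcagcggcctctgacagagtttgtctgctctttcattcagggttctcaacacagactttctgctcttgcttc

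The 9 measured members spanned a wide range of levels. Hdac2 and Hdac7 stood far above the rest, ahead of 94.0% and 91.8% of all tested genes by mean log2 CPM. Hdac5 followed, then Hdac1 and Hdac3, Hdac6, Hdac10 and Hdac4, and last Hdac8, which was ahead of 18.4%. Over the 4 libraries, log2 CPM ran from 7.70 to 7.98 for Hdac2, from 7.26 to 7.68 for Hdac7 and from 4.91 to 5.33 for Hdac5, ranges that did not touch. Those of Hdac1 (4.39 to 4.75) and Hdac3 (4.21 to 4.86) overlapped, as did Hdac3 and Hdac6 (3.52 to 4.37), so the order among these neighbours was not larger than their spread. Hdac10 (2.06 to 2.64) and Hdac4 (2.06 to 2.71) could not be ordered either. Hdac8 (1.53 to 1.95) lay below both, on between 9 and 11 reads per library.

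**Figure D1:**
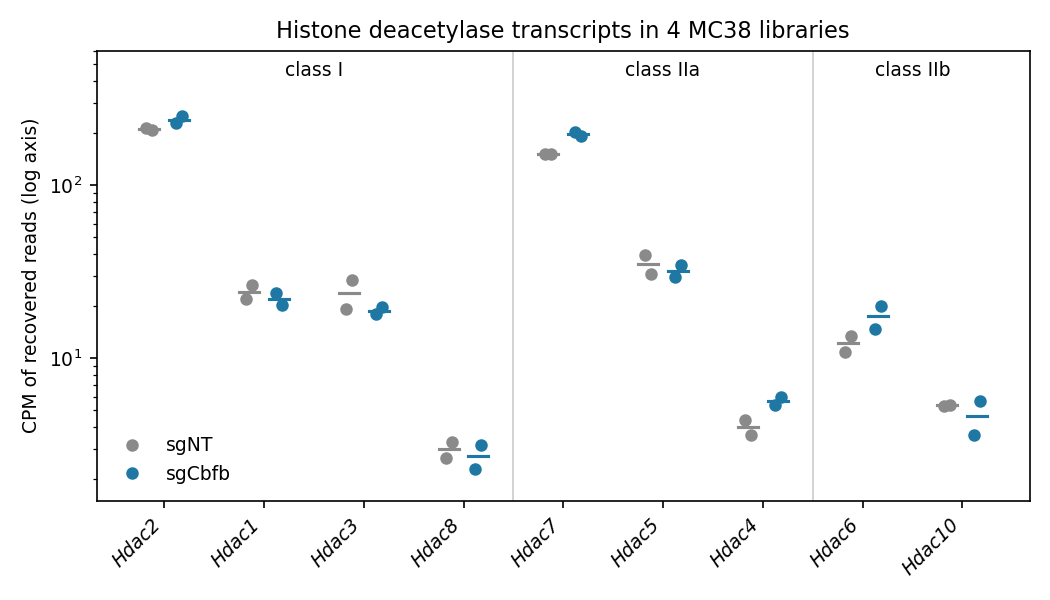
Level of each measured histone deacetylase gene in CPM of recovered reads (log axis), with grey points for the 2 sgNT libraries, blue points for the 2 sgCbfb libraries and a bar at each group mean, ordered by class. Hdac2 (207 to 252 CPM) and Hdac7 (152 to 204 CPM) lie well above the other members, and the sgCbfb points of Hdac2, Hdac7, Hdac4 and Hdac6 lie above both sgNT points.

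Hdac7, the class IIa member best known for its roles in thymocytes and the endothelium, lies on chromosome 15 from 97792664 to 97844502 (GRCm38, minus strand). It had 517 and 508 reads under sgNT and 797 and 618 under sgCbfb. In CPM these were 152 and 152 against 204 and 194. Both sgCbfb libraries were high, and the sgNT libraries lay closer together than is usual, 0.00084 apart in log2 CPM where 500 genes of similar level differed by a median of 0.073. Mean log2 CPM was 7.26 ± 0.00060 (SD, n = 2) under sgNT, and under sgCbfb it was 7.64 ± 0.052 (SD, n = 2). The difference of 0.38 on the log2 scale (standard error 0.077), or 1.30-fold, is the value that brought the family in and is given as a description without a test. In bulk libraries, more cells with the transcript and more transcript per cell cannot be told apart.

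The 3′ end of Hdac7 faces that of Slc48a1, a haem transporter gene on the opposite strand. Exons of Slc48a1 reach up to 29 bases into the last 500 bases of annotated Hdac7 transcripts. Slc48a1 had 1453 and 1269 reads under sgNT and 1741 and 1269 under sgCbfb, and its log2 difference was 0.061 with a standard error of 0.070 (adjusted p = 0.759 from limma). Whether reads were counted by strand is not given in the sources used here, and the part of the overlap in the Hdac7 counts was not tested.

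Hdac2 was the most abundant class I member and the most abundant of the family. Together with its paralog Hdac1 it forms the catalytic core of Sin3, NuRD and CoREST. Hdac2 is on chromosome 10 (36974544 to 37001889) and had 733 and 692 reads under sgNT and 891 and 803 under sgCbfb. This was 216 and 207 CPM against 228 and 252 CPM, so the sgCbfb libraries lay above the sgNT libraries without overlap. The log2 difference was 0.18 (standard error 0.074, 95% confidence interval 0.026 to 0.33), and its adjusted p of 0.237 from limma did not pass the threshold.

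Hdac1, on chromosome 4 (129516104 to 129542713), had 75 and 88 reads under sgNT and 93 and 65 under sgCbfb. The CPM values, 22.1 and 26.4 against 23.8 and 20.4, overlapped between the groups, and the log2 difference was -0.13 (95% confidence interval -0.50 to 0.24, adjusted p = 0.812 from limma). Hdac1 has processed copies in the mouse genome. The transcript of Gm10093 matched it at 99.4% identity over 1444 bases, a match that ended 510 bases before the 3′ end of the Hdac1 transcript, and no other gene matched the last 500 bases. Reads from further inside the transcript could have been shared with the copies, which makes the ratio of Hdac2 to Hdac1 uncertain.

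Hdac3, the catalytic subunit of NCoR/SMRT complexes, lies on chromosome 18 (37935844 to 37955016). It had 65 and 95 reads under sgNT and 70 and 63 under sgCbfb. Its sgNT libraries were the furthest apart of any member, at 19.1 and 28.5 CPM, and the lower one fell among the sgCbfb values of 17.9 and 19.8 CPM. The log2 difference was -0.30 (95% confidence interval -0.72 to 0.11, adjusted p = 0.523 from limma), and it was -0.024 without sgNT replicate 2.

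Hdac8, a class I enzyme that deacetylates the cohesin subunit SMC3, lies on chromosome X (102284639 to 102505359). With 9 and 11 reads under sgNT and 9 and 10 under sgCbfb, its interval ran from -0.93 to 0.71 on the log2 scale (adjusted p = 0.935 from limma). At this depth the values allow any difference within that interval, which is not a limit of detection.

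Among the other class IIa members, Hdac5 (chromosome 11, 102194432 to 102230166) had 135 and 102 reads under sgNT and 115 and 111 under sgCbfb. HDAC5 is a signal-dependent repressor of MEF2 targets, best studied in the heart and skeletal muscle. Its levels of 39.7 and 30.6 CPM against 29.4 and 34.8 CPM overlapped, with a log2 difference of -0.12 (95% confidence interval -0.45 to 0.21, adjusted p = 0.793 from limma). Without sgNT replicate 1 the sign turned, to 0.064.

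Hdac4, whose product restrains chondrocyte hypertrophy by repressing MEF2C and RUNX2, is on chromosome 1 (91928779 to 92195699). It had only 15 and 12 reads under sgNT and 21 and 19 under sgCbfb. At 4.42 and 3.60 CPM against 5.37 and 5.96 CPM the groups did not overlap, but the log2 difference of 0.45 had a 95% confidence interval from -0.26 to 1.15 (adjusted p = 0.595 from limma). Hdac9 (chromosome 12, 34047580 to 34917095) had 0 reads in all 4 libraries, which allows up to between 0.768 and 0.941 CPM in a library if the limit is set at 3 reads. That limit covers counting error only.

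Hdac6, the cytoplasmic class IIb enzyme with a ubiquitin-binding zinc finger, is on chromosome X (7930120 to 7947889). It had 37 and 45 reads under sgNT and 58 and 64 under sgCbfb. In CPM these were 10.9 and 13.5 against 14.8 and 20.1, so that the sgCbfb pair lay above the sgNT pair. Its log2 difference of 0.49 (standard error 0.23, 95% confidence interval 0.015 to 0.97) was larger than that of Hdac7 but rested on fewer reads, and the adjusted p was 0.315 from limma. Hdac10 (chromosome 15, 89123307 to 89128700) had 18 and 18 reads under sgNT and 14 and 18 under sgCbfb. Its interval ran from -0.93 to 0.49 (adjusted p = 0.839 from limma), and the sign turned to 0.070 without sgCbfb replicate 1.

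Of the 8 tested members other than Hdac7, 0 passed the threshold of 0.05 on the adjusted p from limma, against 2.83% of all tested genes. There were 2 of the 8 with an unadjusted p under 0.05 from limma, Hdac2 and Hdac6, a level that 14.9% of all tested genes reached. Voom with library totals, run on recovered reads, also called 0, with 2 at an unadjusted p under 0.05, and voom with median scaling called 0 with 0 at that level, where these fits called 3.72% and 3.47% of all tested genes. Their median log2 difference was -0.12, with 3 positive and 5 negative values. Both sgCbfb libraries lay above both sgNT libraries for 3 of the 8 (Hdac2, Hdac4 and Hdac6), and 27.4% of all tested genes showed that order. The reverse order held for 0 of the 8, against 16.8% of all tested genes.

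**Figure D2:**
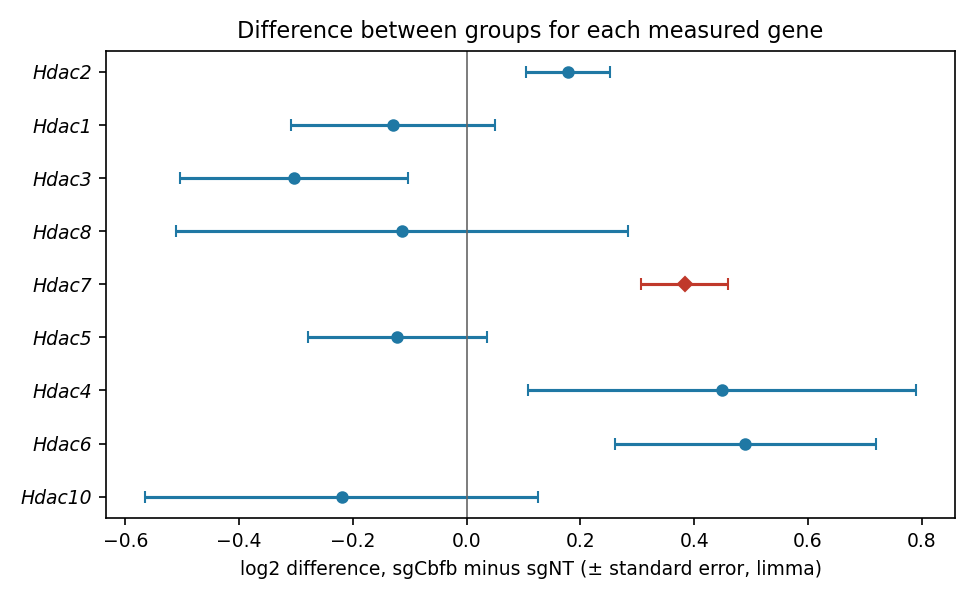
Log2 difference between sgCbfb and sgNT for each measured member (points) with the standard error from limma (bars), Hdac7 as a red diamond because its value chose the family. Hdac7 at 0.38 and Hdac2 at 0.18 have short bars, while the bars of Hdac8, Hdac10 and Hdac4, which rest on few reads, are several times longer.

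The make-up of the family was then compared between the libraries, as shares of all reads on the 10 genes. The whole family took 472 and 471 CPM under sgNT and 529 and 555 CPM under sgCbfb, sums that contain the Hdac7 values that chose it. Without Hdac7 the sums were 320.1 and 318.7 CPM against 325.2 and 361.6 CPM, and without Hdac2 as well they overlapped, at 104.2 and 111.2 against 97.2 and 109.8 CPM. The library totals behind CPM include Rn45s, which took 13.9% and 13.1% of all reads under sgNT and 11.3% and 13.0% under sgCbfb. The part of Rn45s in these sums was not tested. Hdac2 and Hdac7 together accounted for most of the family's reads in every library. Hdac7 took 32.2% and 32.3% of the family's reads in sgNT cells (Wilson 95% intervals 30.0% to 34.6% and 30.1% to 34.7%, which cover counting error only). In sgCbfb cells it took 38.5% and 34.9% (36.5% to 40.7% and 32.7% to 37.1%), and these shares are a description, since they contain the values that chose the family. Hdac2 took 45.7% and 44.0% under sgNT and 43.1% and 45.3% under sgCbfb, shares that Hdac7 lowers where it is high. With the Hdac7 reads also taken out of the total, a denominator chosen after seeing the data, Hdac2 took 67.4% and 65.1% under sgNT and 70.1% and 69.6% under sgCbfb, and these groups did not overlap.

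By class, class IIa took 41.6% and 39.6% of the family's reads under sgNT and 45.1% and 42.2% under sgCbfb. Class I took 55.0% and 56.4% against 51.4% and 53.1%, and class IIb stayed between 3.43% and 4.63%. With the Hdac7 reads left out of both the class and the total, class IIa took 13.8% and 10.7% under sgNT and 10.7% and 11.3% under sgCbfb. On that total class I took 81.1% and 83.3% against 83.6% and 81.6%, and class IIb 5.06% and 5.93% against 5.67% and 7.11%, so that the groups overlapped for each of the 3 classes. On the full total, the higher class IIa share and the lower class I share under sgCbfb include or move against the Hdac7 values by construction. The exact permutation test was also run on these shares, but it is not read, because the Hdac7 values chose the family. Within its class, Hdac7 supplied 77.5% and 81.7% of the reads under sgNT and 85.4% and 82.6% under sgCbfb, again as a description. Hdac2 supplied 83.1% and 78.1% of class I under sgNT and 83.8% and 85.3% under sgCbfb, a comparison that does not involve Hdac7. The groups did not overlap for this share, but the nearest libraries were 83.1% and 83.8%. The exact permutation test (two-sided) gave p = 0.333, the smallest it can give with 2 libraries against 2, so this design could not pass the threshold.

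**Figure D3:**
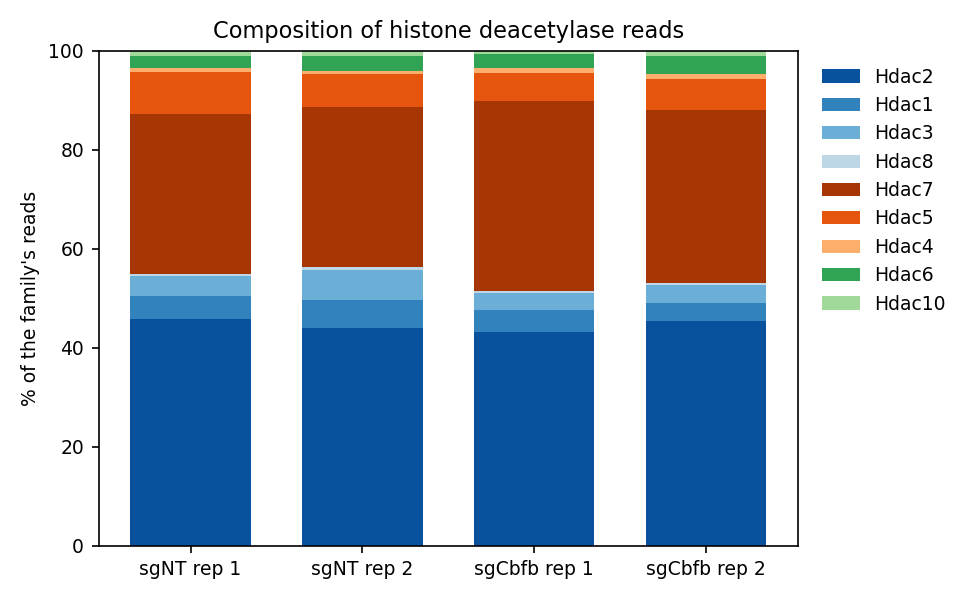
Share of the family's reads taken by each gene in each of the 4 libraries, with class I in blues, class IIa in browns and oranges and class IIb in greens. Hdac2 and Hdac7 fill most of every bar, and the Hdac7 segment grows from 32.2% and 32.3% in sgNT to 38.5% and 34.9% in sgCbfb.

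The proteins that these enzymes work with were followed in 9 lists of 89 genes, of which 85 were tested. Ywhag, which encodes a 14-3-3 protein, was the only listed gene past the threshold. It had 829 and 793 reads under sgNT and 1132 and 961 under sgCbfb, and rose by 0.29 in log2 CPM with a standard error of 0.068 (adjusted p = 0.0137 from limma). This call made up 1.18% of the 85 genes, beside 2.83% of all tested genes. Of the 85, 18 (21.2%) had an unadjusted p under 0.05 from limma, beside 14.9% of all tested genes, and counts at that level below are to be read against the same 14.9%. The 18 include Camk2b, which passed the low-value filter only through its sgCbfb libraries. The median log2 difference over the 85 genes was 0.074, against 0.039 over all tested genes, and 64.7% were positive against 57.0%.

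The 14-3-3 proteins hold phosphorylated class IIa enzymes in the cytoplasm. All 7 of the list were tested and all 7 had a positive log2 difference, from 0.074 (Ywhaz) to 0.29 (Ywhag), with a median of 0.17. The same 7 of 7 were positive with median centring, with quantile normalization and with either voom fit. Both sgCbfb libraries were above both sgNT libraries for 5 of the 7, beside the 27.4% of all tested genes. There were 4 of the 7 with an unadjusted p under 0.05 from limma. Apart from Ywhag, Ywhah had an adjusted p of 0.0945, Ywhae 0.114 and Ywhab 0.128 from limma. Ywhag was not called with quantile normalization (adjusted p = 0.149 from limma), with no trend (adjusted p = 0.422 from limma) or at a threshold of 0.01. In voom with library totals Ywhae (adjusted p = 0.00902) and Ywhab (adjusted p = 0.0397) were called beside Ywhag, and in voom with median scaling Ywhae (adjusted p = 0.0228) was, beside the 3.72% and 3.47% of all tested genes called in these fits. The call of Ywhag was lost with each library left out in turn. Its adjusted p from limma was 0.0775 without sgNT replicate 1, 0.149 without sgNT replicate 2, 0.525 without sgCbfb replicate 1 and 0.511 without sgCbfb replicate 2.

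The MEF2 factors, the DNA-binding partners that class IIa enzymes repress, all had negative differences among the 3 tested. Mef2c had 148 and 126 reads under sgNT and 133 and 90 under sgCbfb, with a log2 difference of -0.38 (adjusted p = 0.198 from limma). Mef2d was at -0.16, Mef2a at -0.029 and Mef2b had 0 reads. None of the 3 passed the threshold in limma, and 1 had an unadjusted p under 0.05, while both voom fits also called 0 of them.

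Kinases that phosphorylate class IIa enzymes, of the PKD, CaMK, SIK and MARK families, showed 0 calls among 13 tested in limma, with 3 at an unadjusted p under 0.05, and 0 calls in either voom fit. There were 7 positive and 6 negative differences and a median of 0.0051. With median centring, quantile normalization or either voom fit, 6 of the 13 were positive, and the median lay between -0.036 and -0.0019. The smallest p-values in that list belonged to Camk1d, with a log2 difference of -0.49 (adjusted p = 0.125 from limma), to Camk2b and to Camk2d at -0.24 (adjusted p = 0.303 from limma). Camk2b, counted among the 3 and among the positive differences, passed the filter only through sgCbfb and so had to differ. It had 0 and 1 reads under sgNT and 6 and 4 under sgCbfb, too few to set a size. Camk2a had 0 reads, and Camk4 had 1 read in 1 library.

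Subunits of the corepressor complexes of HDAC1, HDAC2 and HDAC3 gave 0 calls in limma and 0 in either voom fit. In NuRD, a chromatin remodelling complex, 8 of 10 subunits were positive with a median of 0.13, and 2 had an unadjusted p under 0.05 from limma. Cdk2ap1 (0.21, adjusted p = 0.197 from limma) and Mta1 (0.22, adjusted p = 0.227 from limma) had the smallest p-values. In the CoREST and MiDAC complexes 9 of 11 were positive with a median of 0.13, and 3 had an unadjusted p under 0.05 from limma. Rcor2, a CoREST scaffold, was at 0.28 (adjusted p = 0.105 from limma) and Kdm1a, its histone demethylase, was also at 0.28 (adjusted p = 0.167 from limma).

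The Sin3 subunits were split, 9 positive and 6 negative, with a median of 0.047 and 3 at an unadjusted p under 0.05 from limma. Their smallest p-values belonged to the histone-binding subunit Rbbp4 (0.18, adjusted p = 0.182 from limma), Sin3b (0.22, adjusted p = 0.233) and Suds3 (0.23, adjusted p = 0.271). The 6 NCoR/SMRT subunits had a median of 0.050 and 0 at that level, with Tbl1xr1 at -0.20 (adjusted p = 0.335 from limma) and the scaffold Ncor1, on between 1567 and 1944 reads, at -0.065 (adjusted p = 0.680 from limma).

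The opposing enzymes, the histone acetyltransferases, had 0 calls among 13 tested in limma, with 2 at an unadjusted p under 0.05 and 0 calls in either voom fit. Hat1, which acetylates newly made histone H4, was at 0.32 (adjusted p = 0.109 from limma). Ncoa3 was at 0.64 (adjusted p = 0.139 from limma) on between 38 and 95 reads, and its difference was 0.97 without sgNT replicate 1, where it was called (adjusted p = 0.0447 from limma). Kat7 was at 0.14 (adjusted p = 0.555 from limma). The coactivators Ep300 and Crebbp were at -0.12 and 0.074. Of the deacetylases outside classes I and II, the 7 sirtuins gave 0 calls in limma and 0 at an unadjusted p under 0.05, with Sirt6 at -0.40, Sirt1 at -0.077 and Sirt3 at -0.20. Hdac11, the only class IV enzyme, had 0 reads in every library.

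**Figure D4:**
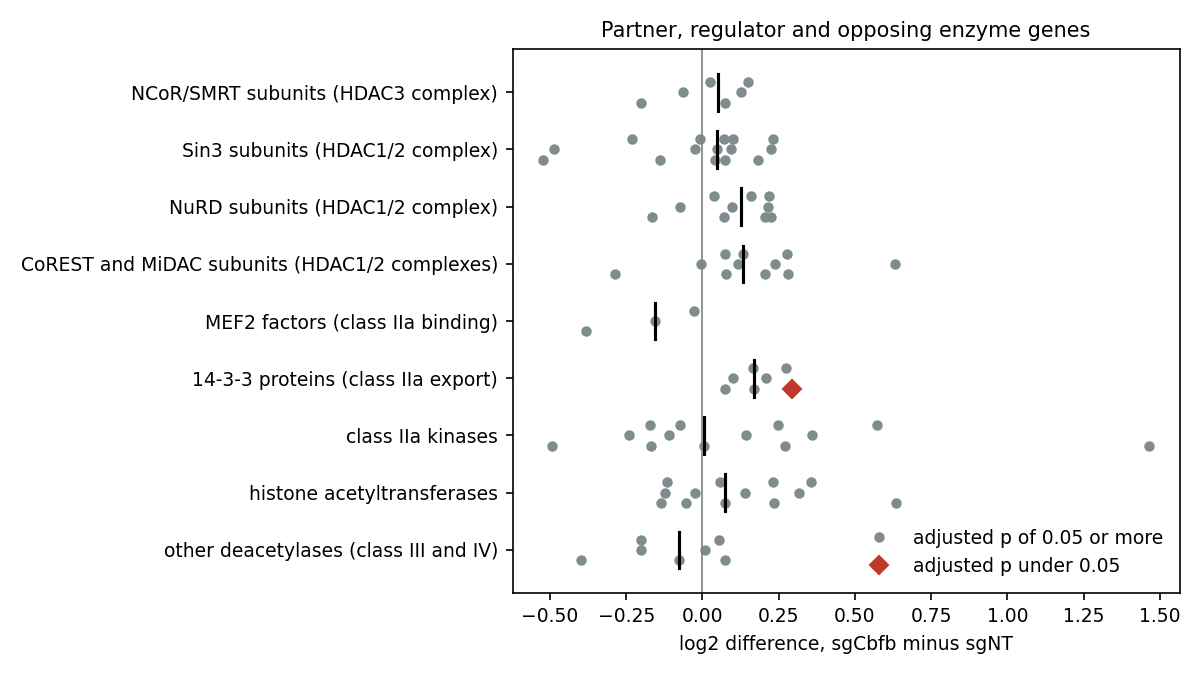
Log2 difference of each tested gene in the 9 lists of partner, regulator and opposing genes, with a vertical bar at each list's median. Ywhag is the single point past the adjusted p threshold (red diamond, 0.29), and all 7 points of the 14-3-3 list lie to the right of 0.

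RUNX proteins recruit histone deacetylases as corepressors, so the RUNX genes were read beside them. Runx1 had 249 and 252 reads under sgNT and 455 and 378 under sgCbfb, and rose by 0.65 on the log2 scale (adjusted p = 6.84e-05 from limma). In limma, leaving out sgCbfb replicate 1 (adjusted p = 0.386) or sgCbfb replicate 2 (adjusted p = 0.396) ended that call, as did a fit with no trend (adjusted p = 0.176). Runx2 had 55 and 52 reads under sgNT and 108 and 90 under sgCbfb, and rose by 0.79 (adjusted p = 0.0123 from limma), a call lost with each library left out (adjusted p between 0.0582 and 0.551), with quantile normalization (adjusted p = 0.121) and with no trend (adjusted p = 0.136). Runx3 had 0 reads in every library.

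The 5 tested genes nearest to Hdac7, by the root mean square difference of log2 CPM over the 4 libraries, were Cpe (0.048), Lasp1 (0.054), Bex3 (0.087), Capns1 (0.088) and a gene whose symbol the table holds as a date (0.095). Cpe, a carboxypeptidase that trims prohormones, had 517 and 477 reads under sgNT and 781 and 624 under sgCbfb. Lasp1, an actin-binding protein gene, had 548 and 519 against 790 and 644. All 5 share the level of Hdac7 and had both sgCbfb libraries above both sgNT libraries, which the measure of likeness favours by itself.

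Leaving out single libraries or changing the scaling moved the members unequally. Hdac2 ran from 0.11 to 0.25 on the log2 scale, and the Hdac7 value, given as a description, from 0.35 to 0.42. Only the scalings, the left-out libraries and the voom fits can move a difference, since a filter, the trend, the replicate block or the threshold leaves it as it is. Hdac6 ran from 0.28 to 0.70 and Hdac4 from 0.32 to 0.58. Hdac1 (-0.25 to -0.0037) and Hdac3 (-0.58 to -0.024) kept a negative sign, whereas Hdac5, Hdac8 and Hdac10 changed sign with 1 library left out.

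**Figure D5:**
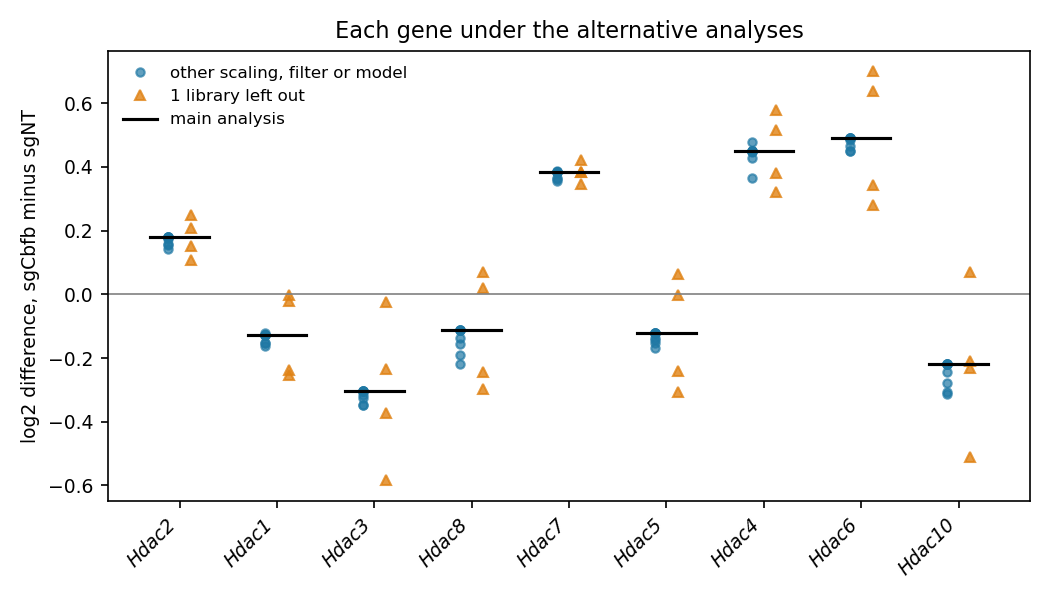
Log2 difference of each member in the main analysis (black line), with other scalings, filters and models (blue circles) and with 1 library left out (orange triangles). The Hdac7 values lie between 0.35 and 0.42, while Hdac3, Hdac6 and Hdac10 spread widely when a library is left out.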

How the data were processed

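Per the submitters' processing notes, cutadapt 1.9 was used for trimming, HISAT2 2.1.0 for alignment and featureCounts 2.0.1 for counts per gene, on the mouse genome mm10. The annotation, the use of strand and the treatment of multi-mapping reads are not given in the sources used here. The authors deposited log2 CPM scaled to each library's total, with a floor of -0.79 for genes without reads.

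Whole reads were recovered from these values, with all but 1 value above the floor within 0.1 of a whole number, and used for depth, shares and voom. Sampling depth limits members with few reads. Genes were kept where 2 or more libraries had a log2 CPM of 0 or above, and tested with limma 3.58.1 in R 4.3.3 (mean-variance trend, two-sided, Benjamini-Hochberg over all tested genes, threshold 0.05), a procedure checked on simulated data. The study names voom with limma, which takes counts. p-values measure the spread between libraries, since separate cultures are not stated.

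The members and lists were chosen with earlier results of these data known. Named genes were all members, the CBF/RUNX genes, called genes of each list or else up to 3 genes with the smallest p, and the 5 genes nearest to Hdac7. Other genes were added for a role in the text after their values were seen. Alternatives were no filter, a minimum of 5 CPM, median centring, quantile normalization, no trend, a replicate block, a threshold of 0.01, leaving out each library and voom with library totals or median scaling. A pseudocount was not varied, since the values are log2. Positions are from GENCODE M21. Transcript ends were compared with blastn 2.17.0 over 141767 transcripts (at least 90% identity over at least 70 bases). Promoter sequences are from RefSeq (GRCm38.p6).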

Additional observations from a re-analysis of the deposited data

How the results depend on the processing

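The count of members other than Hdac7 past the threshold was 0 in the main analysis and in all 13 alternatives. Libraries with the same replicate number showed no shared deviation (correlation -0.0042 over 12207 genes), and the labels do not say what the numbers stand for. For the changes below, the cause was not tested. Over all tested genes, 192 were higher and 153 lower in sgCbfb cells. A minimum of 5 CPM gave 300 higher and 209 lower, the replicate block 320 and 215, and voom with library totals 258 and 196. Quantile normalization gave 39 higher and 44 lower, a threshold of 0.01 gave 103 and 97, and no trend gave 0 and 0 (1461 with an unadjusted p under 0.05 from limma). Voom with median scaling gave 189 higher and 234 lower and median centring 176 and 188, so that, as with quantile normalization, the larger number lay on the other side. With 1 library left out, the counts ran from 0 to 115 higher and from 0 to 86 lower, and both were 0 without either sgCbfb library (1104 genes without replicate 1 and 1169 without replicate 2 had an unadjusted p under 0.05 from limma). The Cbfb call was lost in both of these fits and without the trend (adjusted p = 0.267, 0.193 and 0.115 from limma). Of the partner and opposing genes, 1 was called. The count was 2 under the 5 CPM minimum, 2 with the replicate block (Ywhag and Ncoa3), 3 in voom with library totals (Ywhag, Ywhae and Ywhab), 2 in voom with median scaling, 0 with quantile normalization, 0 without the trend, 0 at 0.01, and from 0 to 1 with a library left out, the 1 being Ncoa3 without sgNT replicate 1. The signs of Hdac5, Hdac8 and Hdac10 turned when a library was left out, with ranges of -0.31 to 0.064, -0.30 to 0.070 and -0.51 to 0.070, Hdac8 being 0.019 without sgNT replicate 2. Hdac8 had no value with a minimum of 5 CPM. Depth limits Hdac4, Hdac8 and Hdac10 most, at no more than 21 reads per library.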
